A study of Mus musculus with 8 samples.

Results

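Mouse Paneth cells transcribe a cluster of 28 protein-coding alpha-defensin (Defa) genes, and 8 of these, Defa3, Defa5, Defa17, Defa26, Defa27, Defa28, Defa34 and Defa35, are described here as minor copies next to Defa24, the copy with the most counts. The 8 genes were chosen by their measured counts in these libraries, low against Defa24 but high enough to use. Their low level is thus a description and not a finding. The name minor refers to counts as assigned to single genes. For copies with little sequence of their own, such as Defa3, Defa5 and Defa17, it may not hold for the transcripts. All 8 were among the 10707 genes tested of the 55414 in the table, as were 12 other Defa genes. The remaining 8 Defa genes had too few counts assigned to them. Of these only Defa23 had any stretch of 75 bases found in no other gene, so few counts need not mean few transcripts. The list is not a clean cut on counts, since Defa40, which is not in it, lay between Defa17 and Defa5. Defa42 and Defa43, also not in it, had 350 and 254 counts over the 8 libraries against 245 for Defa27. Stretches of 75 bases found in no other gene were 1.42% and 0% of Defa42 and Defa43 but 64.3% of Defa27. These counts therefore do not compare the levels of the transcripts.

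The cells were Paneth cells sorted from the small intestine of C57BL/6J mice, 1 mouse per library, and profiled by RNA-seq of polyadenylated RNA. The mice drank either Milli-Q water, which is purified laboratory water (4 libraries, called water 1 to 4), or the same water with 25 mM ZnSO4 (4 libraries, called zinc 1 to 4), for 7 days. Every mouse in both groups was injected with tumor necrosis factor (TNF) and the cells were taken 3 hours later, so no library shows the genes without TNF. The sex and age of the mice and the TNF dose are not given in the sources used here. The comparison of zinc with water asks whether dietary zinc changed the transcripts of Paneth cells under TNF.

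Alpha-defensins are small cationic antimicrobial peptides that Paneth cells pack into granules at the crypt base and release into the gut lumen. Each is made as a precursor with a signal peptide, an acidic pro-segment and a C-terminal mature peptide, which in mice is cut free by matrilysin (Mmp7) and is held in shape by disulfide bonds between 6 conserved cysteines. The mouse genes arose by repeated duplication, which is why many copies are nearly identical and why reads can match several of them.

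Library totals ran from 10623658 to 15101627 counts, and the 28 Defa genes took 34.0% to 44.8% of them. Levels below are given as CPM, the count set to a common library size after scaling by TMM (an edgeR method that sets the bulk of genes equal between libraries), or as a percent of Defa24 within the same library, which needs no scaling between libraries. Water 3 had the smallest scaled size, 8134289, and the highest summed CPM of 8 Paneth cell markers, 732757 against 390046 to 572872 in the other libraries. Zinc 3 had the highest summed CPM of 12 enterocyte markers, 759 against 313 to 432 elsewhere.

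All 8 genes lay on the plus strand of chromosome 8 (GRCm39, GENCODE M39), inside the Defa locus at chr8:21515557-22225490, where 23 Defa genes are on the plus strand and 5 on the minus strand. In order of coordinates they were Defa35 at chr8:21555054-21556012, Defa3 at chr8:21777413-21778393, Defa5 at chr8:21787455-21788391, Defa27 at chr8:21805536-21806499, Defa28 at chr8:22072965-22073980, Defa26 at chr8:22108199-22108988, Defa17 at chr8:22145772-22146753 and Defa34 at chr8:22155768-22156751. Defa24 ended the locus at chr8:22224506-22225490, and the 8 genes started 68.7 kb (Defa34) to 670 kb (Defa35) from its start. Each had 2 exons in its canonical transcript. In the same order the table lists them as ENSMUSG00000061845, ENSMUSG00000074440, ENSMUSG00000074439, ENSMUSG00000082211, ENSMUSG00000074434, ENSMUSG00000060070, ENSMUSG00000060208 and ENSMUSG00000063206. Defa3 and Defa5 also lay within the span of a plus-strand long noncoding gene, Gm65300, at chr8:21708680-21800093, which was not analysed here.

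The mature peptide is encoded by the second exon, so its last 35 codons are shown to let the copies be told apart. The reading is 5′ to 3′ on the plus strand of GRCm39, stop codon included, and capitals mark bases that differ from Defa24 in an alignment of the same stretch. The stretches are at chr8:22225289-22225393 for Defa24, chr8:22146553-22146657 for Defa17, chr8:22108794-22108898 for Defa26, chr8:22073779-22073883 for Defa28 and chr8:21788193-21788297 for Defa5.
Defa24: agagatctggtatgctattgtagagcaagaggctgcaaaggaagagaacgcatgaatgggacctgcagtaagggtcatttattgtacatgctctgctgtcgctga
Defa17: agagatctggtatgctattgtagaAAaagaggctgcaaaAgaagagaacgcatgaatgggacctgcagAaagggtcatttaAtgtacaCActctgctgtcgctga
Defa26: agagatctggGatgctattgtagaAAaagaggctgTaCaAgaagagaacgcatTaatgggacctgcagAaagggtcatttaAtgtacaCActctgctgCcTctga
Defa28: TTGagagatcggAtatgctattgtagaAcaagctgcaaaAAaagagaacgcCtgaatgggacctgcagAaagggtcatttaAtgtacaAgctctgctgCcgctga
Defa5: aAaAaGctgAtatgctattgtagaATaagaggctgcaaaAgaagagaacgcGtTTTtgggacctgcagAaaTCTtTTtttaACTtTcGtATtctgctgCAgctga
Defa3 was identical to Defa17 over this stretch, and Defa34 and Defa35 were identical to Defa5. Defa17 differed from Defa24 by 7 edits (substitutions, insertions or deletions of 1 base), Defa26 by 13, Defa28 by 16 and Defa5 by 26. Bases missing within the stretch of Defa28 shift the start of its window. Its leading capitals thus lie before the stretch shown for Defa24 and add to its edits. The second coding exon of Defa27 was shorter than the window, so its stretch is not shown.

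Over the whole coding sequence the 8 genes fell into families that matter for the counts. Defa3 and Defa17 encoded the same protein from identical coding sequences, with 12 edits to Defa24 and a protein identity to Defa24 of 91.4%, and their transcripts differed by 2 edits. Defa5, Defa34 and Defa35 were 3 to 5 edits apart and 45 to 47 edits from Defa24. Defa26 was closest to Defa40 with 6 edits and 30 edits from Defa24, and Defa28 was closest to Defa25 with 17 edits and 35 edits from Defa24. Defa27 was the odd copy in its annotated protein, with 66 residues against 93 for Defa24 and 94 for Defa28. Its coding sequence was 95 edits from Defa24, which include the difference in length (201 against 282 bases). Over the whole transcript Defa27 was 83 edits from Defa24, between Defa28 at 72 and Defa35 at 87. All 8 had 6 cysteines in the last 35 residues of the annotated protein.

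How far a read can name its gene was measured as the share of a transcript's 75-base words that occur in no other annotated gene. It was 93.4% for Defa24, 85.9% for Defa26, 64.3% for Defa27, 62.0% for Defa35, 40.7% for Defa28, 22.9% for Defa34, 8.07% for Defa17, 8.05% for Defa3 and 2.32% for Defa5. Defa5 thus held 80472 counts over the 8 libraries with almost no sequence of its own, and had no 50-base word of its own at all. Defa17 held 148276 counts and its twin Defa3 held 11841, although 2 edits separate their transcripts. Counts of Defa5, Defa34, Defa3 and Defa17 are therefore uncertain as counts of single genes, because no source used here gives the rule for reads with several matches.

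**Figure D1:**
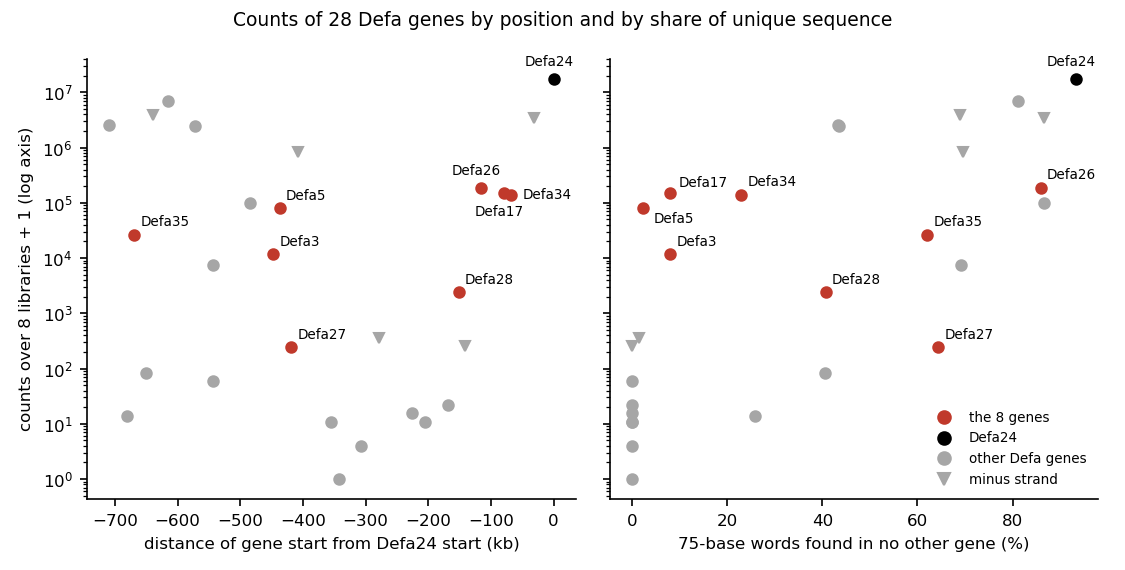
Counts summed over 8 libraries plus 1 (log axis) for the 28 Defa genes, against distance of the gene start from the Defa24 start in kb (left) and against the percent of 75-base words found in no other gene (right). Defa17, Defa34 and Defa26 are the minor copies nearest to Defa24 and have the most counts, while Defa5, Defa3 and Defa17 sit at the left of the right panel, at 2.32% to 8.07%.

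Position and level did not follow each other closely. Across the 8 genes Spearman's rho between distance from Defa24 and level relative to Defa24 was -0.548, and between the share of unique words and level it was 0, both given as descriptions over 8 genes of 1 locus. Across all 28 Defa genes rho between the share of unique words and counts was 0.793, again as a description.

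Level relative to Defa24 is given as counts per base of the canonical transcript, in percent of the same quantity for Defa24. The 8 genes spanned nearly 3 orders of magnitude. Defa26 stood at 1.20% of Defa24 (geometric mean of 8 libraries), Defa34 at 0.873%, Defa17 at 0.830%, Defa5 at 0.504%, Defa35 at 0.154%, Defa3 at 0.0660%, Defa28 at 0.0139% and Defa27 at 0.00151%. Together they held 0.538% (zinc 2, 95% Wilson interval 0.533 to 0.542) to 0.717% (water 3, 0.712 to 0.722) of a library's counts, and 1.44% to 1.62% of its Defa counts.

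In the deposited counts the order was the same in all libraries except at the top. Defa26 was above Defa34 in 7 of 8 libraries and Defa34 above Defa17 in 5 of 8, so Defa34 and Defa17 did not differ beyond their spread. From Defa17 on, each gene was above the next in 8 of 8 libraries. The steps were 1.65-fold from Defa17 to Defa5, 3.26-fold from Defa5 to Defa35, 2.34-fold from Defa35 to Defa3, 4.74-fold from Defa3 to Defa28 and 9.19-fold from Defa28 to Defa27. When counts were divided by unique 75-base words in place of length, Defa5, with 7 such words, came to 20.9% of Defa24, Defa17 to 9.62%, Defa34 to 3.65% and Defa3 to 0.766%. With 100-base words Defa5 came to 4.54% and fell below Defa17 at 9.56%. The rank of Defa5, Defa17, Defa34 and Defa3 is thus a rank of the counts as assigned, and the study's own transcript-level estimates were not used here.

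Defa26 kept the steadiest ratio to Defa24. It was 1.10, 1.23, 1.25 and 1.21% of Defa24 in water 1 to 4 and 1.24, 1.18, 1.22 and 1.16% in zinc 1 to 4, a coefficient of variation (CV) of 4.13%. All 8 libraries lay within a narrow band and the groups overlapped. Defa17 was 0.740, 0.733, 0.905 and 0.864% in water and 0.839, 0.816, 0.982 and 0.792% in zinc, with the highest value in zinc 3 and a CV of 10.03%.

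Defa3, the twin of Defa17, was 0.0547, 0.0554, 0.0638 and 0.0625% of Defa24 in water and 0.0703, 0.0715, 0.0909 and 0.0650% in zinc. Here all 4 zinc libraries were above all 4 water libraries, the only one of the 8 genes whose ratio to Defa24 did not overlap between groups. Over all genes tested, 1.93% did not overlap on that ratio, 192 of them higher and 15 lower with zinc.

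Defa28 was 0.0121, 0.0127, 0.0139 and 0.0120% of Defa24 in water and 0.0141, 0.0135, 0.0234 and 0.0122% in zinc. Zinc 3 stood well above the other 7 libraries, which lay close together. In that library the enterocyte markers were also at their highest, and their part in the Defa28 value was not tested. Defa27 rested on 17 to 44 counts per library and was 0.00150, 0.00183, 0.00144 and 0.00146% in water and 0.00104, 0.00121, 0.00212 and 0.00180% in zinc.

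Defa5, Defa34 and Defa35, which share their mature peptide stretch, moved differently. Defa5 was 0.573, 0.583, 0.409 and 0.486% of Defa24 in water and 0.470, 0.598, 0.381 and 0.589% in zinc. Defa35 was 0.177, 0.177, 0.104 and 0.153% in water and 0.133, 0.212, 0.116 and 0.199% in zinc. For both genes the 3 lowest libraries were water 3, zinc 1 and zinc 3, which come from both groups. Defa34 was 1.22, 1.08, 0.924 and 0.727% in water and 0.642, 0.902, 0.618 and 1.06% in zinc, lowest in zinc 3 and zinc 1 and highest in water 1.

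**Figure D2:**
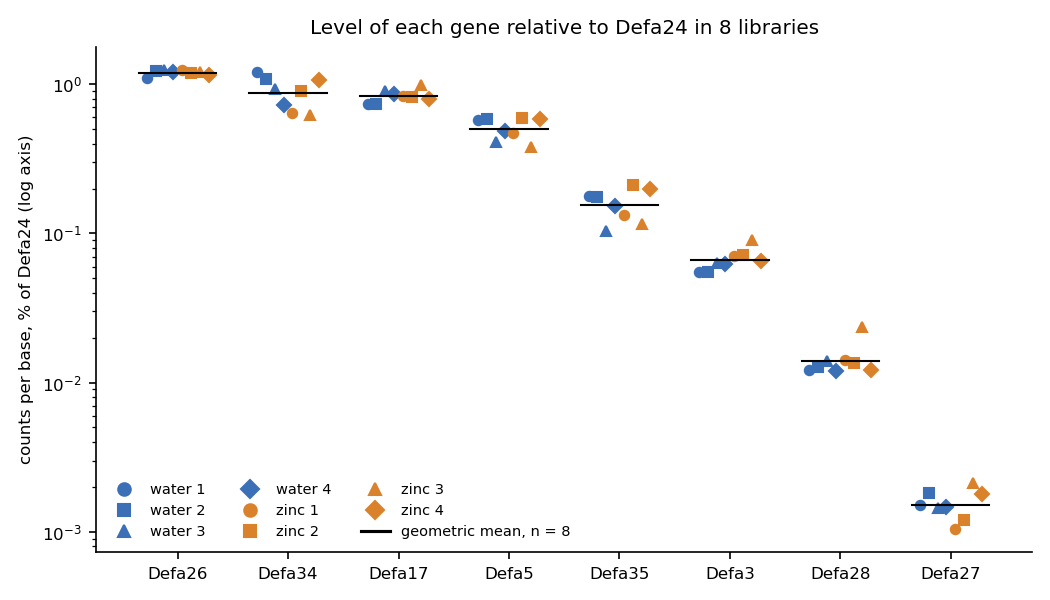
Counts per base of transcript in percent of Defa24 (log axis) for the 8 minor copies, 1 marker per library, with the geometric mean of 8 libraries as a bar. Levels run from 1.20% for Defa26 to 0.00151% for Defa27, and zinc 3 stands above the rest for Defa28.

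Co-variation across mice was first described over the 28 pairs of the 8 genes, as Pearson's r of log2 CPM over the 8 libraries. It ran from -0.313 (Defa28 with Defa35) to 0.968 (Defa17 with Defa26), with a median of 0.573. The genes fell into 2 sets, a grouping made after these values were seen and so given with no test. Defa3, Defa17, Defa26, Defa27 and Defa28 had r of 0.635 to 0.968 among themselves (10 pairs, median 0.810), and Defa5, Defa34 and Defa35 had r of 0.626 to 0.852 (3 pairs, median 0.842). Between the sets r was -0.313 to 0.641 (15 pairs, median 0.245). The libraries share their scaling. After division by Defa24 the r of Defa27 was -0.143 with Defa26, 0.0943 with Defa17, 0.138 with Defa3 and 0.402 with Defa28, below its r of CPM with each of them. Defa26 also fell, to 0.347 with Defa3, 0.326 with Defa28 and 0.535 with Defa17. On that scale r was 0.820 for Defa3 with Defa17, 0.873 for Defa3 with Defa28 and 0.755 for Defa17 with Defa28. It was 0.956 for Defa5 with Defa35, 0.711 for Defa5 with Defa34 and 0.567 for Defa34 with Defa35. Between the sets it ran from -0.899 (Defa5 with Defa17) to 0.179 (Defa27 with Defa34). The shared divisor can by itself shape these values.

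**Figure D3:**
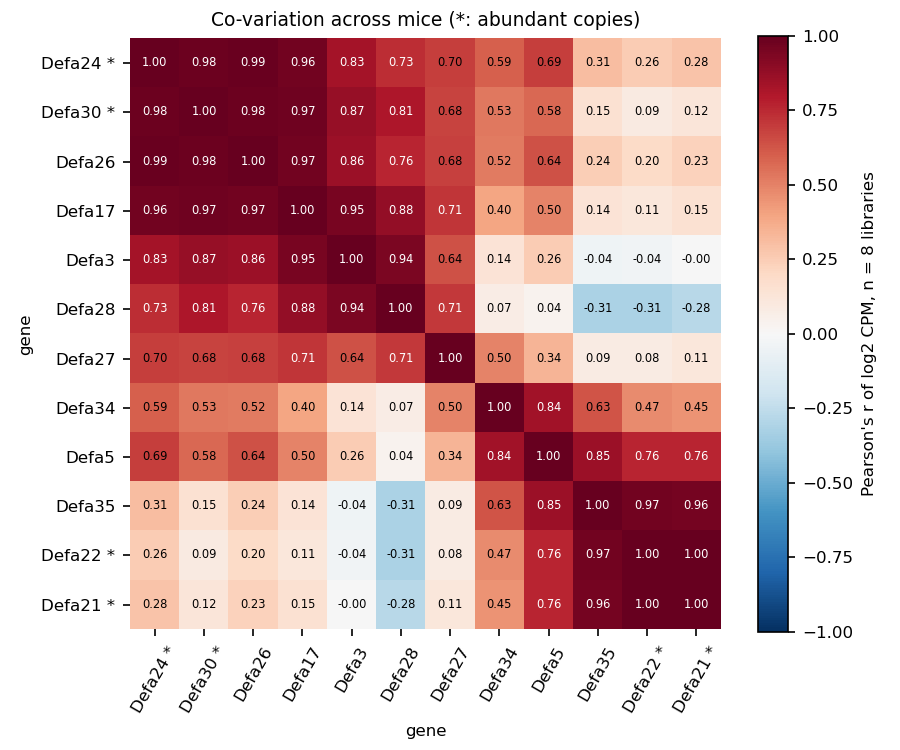
Pearson's r of log2 CPM over 8 libraries between the 8 minor copies and 4 abundant copies (starred: Defa24, Defa30, Defa22 and Defa21). Defa26 and Defa17 are at 0.99 and 0.96 with Defa24, and Defa35 is at 0.97 and 0.96 with Defa22 and Defa21 but at 0.31 with Defa24.

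Which abundant copy each minor copy followed was then read from the SD of the log2 ratio of 2 genes over the 8 libraries, which does not depend on scaling. Defa26 followed Defa24 most closely of all Defa genes tested, with an SD of 0.061, then Defa30 (0.080) and its own closest relative Defa40 (0.088). Defa17 was nearest to Defa30 (0.109), Defa3 to Defa17 (0.142) and Defa28 to Defa3 (0.161). For Defa27 the lowest SD was 0.330, to Defa38. Defa27 had only 17 to 44 counts per library, so counting error adds to its SD with any gene. A close partner could therefore not be seen or excluded.

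Defa35 followed not Defa24 but Defa22 and Defa21, 2 abundant copies with SDs of 0.084 and 0.101. Its counts were 1.09, 1.08, 1.14 and 0.90% of those of Defa21 in water 1 to 4 and 1.06, 1.07, 1.04 and 1.02% in zinc 1 to 4. That ratio was nearly level over the mice, whereas the ratio of Defa35 to Defa24 ranged from 0.104% to 0.212%. The coding sequences of Defa35 and Defa21 are 49 edits apart, and those of Defa35 and Defa22 are 47. Their coding identity to Defa35 is 83.0% and 83.7%, against 84.3% for Defa24. Over the whole transcript the identity is 81.4% and 82.2%, against 79.7% for Defa24. Whether shared reads have a part in the pattern was not tested. The same stretch of Defa21, at chr8:21516335-21516439, is shown for comparison, with capitals here marking the bases that differ from Defa5 and Defa35.
Defa21: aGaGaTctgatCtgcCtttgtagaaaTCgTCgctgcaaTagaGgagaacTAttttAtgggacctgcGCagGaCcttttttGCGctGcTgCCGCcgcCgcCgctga
Defa5 was nearest to Defa35 (0.147) and then to Defa29 (0.161), and Defa34 to Defa41 (0.210) and then to Defa5 (0.256). Defa41 is 7 coding edits from Defa34 and 3 from Defa5.

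**Figure D4:**
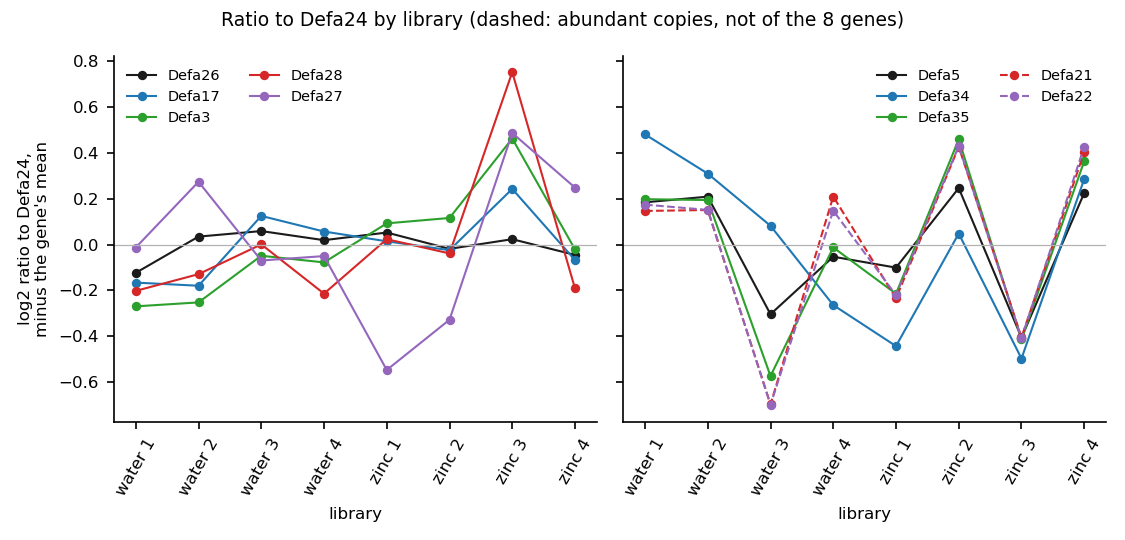
Log2 ratio to Defa24 by library, centred on each gene's mean, for Defa26, Defa17, Defa3, Defa28 and Defa27 (left) and for Defa5, Defa34 and Defa35 with the abundant Defa21 and Defa22 as dashed lines (right). Defa26 stays near 0 in all 8 libraries, and Defa35, Defa21 and Defa22 drop together in water 3, zinc 1 and zinc 3.

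The correlation with Defa24 was tested for every gene by exact permutation of the 8 libraries, adjusted over 10706 genes. No gene passed at an adjusted p of 0.05, which is 0% of the genes tested, and none of the 8 did. Defa26 had the highest r of all 10706 genes, 0.990 (exact permutation p = 0.000174, adjusted p = 0.201), with Spearman's rho 0.952 (p = 0.00114, adjusted p = 0.611). Defa17 had r of 0.963 (p = 0.000521, adjusted p = 0.201) and rho of 0.905 (p = 0.00456, adjusted p = 0.698) and ranked 14. The median r of all genes tested was -0.0152, and 110 genes had r above 0.9.

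The other 6 genes followed Defa24 less. Exact permutation gave Defa3 an r of 0.834 (adjusted p = 0.276), Defa28 0.735 (adjusted p = 0.397), Defa27 0.695 (adjusted p = 0.438), Defa5 0.690 (adjusted p = 0.468), Defa34 0.594 (adjusted p = 0.592) and Defa35 0.308 (adjusted p = 0.836). Their rho was 0.786, 0.786, 0.643, 0.762, 0.357 and 0.333, with exact permutation p of 0.0279, 0.0279, 0.0962, 0.0368, 0.389 and 0.428 in the same order and adjusted p of 0.756 or more. Unadjusted exact permutation p of r was 0.00707, 0.0366, 0.0505, 0.0603, 0.123 and 0.457.

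Water 3 and water 4, the libraries farthest from the median of Defa24, carried part of these relations. Without them r was 0.933 for Defa26, 0.856 for Defa17, 0.721 for Defa3, 0.614 for Defa28 and 0.378 for Defa27. For Defa5, Defa34 and Defa35 it was -0.0121, -0.190 and -0.226, so their positive r was not seen without those 2 libraries. The 2 were picked by their distance in Defa24. Leaving them out narrows the range of Defa24, which by itself can lower r. On plain library totals in place of TMM, 867 genes passed, among them Defa26 (r = 0.965, adjusted exact permutation p = 0.0246) and Defa17 (r = 0.927, adjusted p = 0.0277), while r became -0.237 for Defa5 and -0.567 for Defa35.

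Genes outside the Defa family that followed the 8 minor copies were read from the same r, as a description. For the summed counts of the 8 genes the nearest were BC031181 (0.986), Mmp7 (0.984), the protease that cuts mouse pro-alpha-defensins, Bag1 (0.980), a co-chaperone, Selenof (0.977), a selenoprotein of the endoplasmic reticulum, and Lyz1 (0.974), the Paneth cell lysozyme. The single nearest gene was Defa24 for Defa26, Tpt1 (0.984) for Defa17, Rpl8 (0.988), a ribosomal protein, for Defa3, and Clps (0.983), which encodes colipase, for Defa28. It was Map3k20 (0.958) for Defa27, Yipf5 (0.994), a protein of the early secretory pathway, for Defa5, Abt1 (0.971) for Defa34 and Dnajb9 (0.987), a chaperone of the endoplasmic reticulum, for Defa35. Each is the highest r picked from all genes tested, so a high value is in part a result of that choice. Defa27 had only 17 to 44 counts per library.

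Zinc against water was tested for all genes with edgeR, in its quasi-likelihood form. None of the 8 minor copies passed, as none of the 10707 genes did (0% called, with 1092 at an unadjusted p under 0.05). DESeq2 called 4 genes, none of them among the 8, and limma-voom called 0. At an unadjusted p under 0.05 there was 1 of the 8, Defa34, against 10.2% of all genes. The fitted value was lower with zinc for 6 of the 8, against 49.2% of all genes, and for 10 of the 12 other Defa genes tested. The median log2 change was -0.25 for the 8 genes, -0.20 for those 12 and 0.0062 for all genes. The median of the 8 was -0.08 without water 3, the library highest in Paneth cell markers, 0.11 without water 3 and water 4, and -0.020 when length and GC content were corrected for. In sorted cells, fewer Paneth cells and less RNA per cell cannot be told apart. Between the groups, CPM overlapped for all 8, while 5.87% of all genes did not overlap. The summed CPM of the 17 immune and stromal markers, 3 of which were tested, was 47.4 to 102 in water and 32.5 to 42.1 in zinc, ranges that do not overlap. Cd3g, Col1a1 and Dcn were among those at 0 in every library, and the part of the other markers in these values was not tested.

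Defa34 had the lowest fitted value. Its level was 1625, 1351, 2308 and 1405 CPM in water 1 to 4 and 997, 1084, 909 and 1590.2 CPM in zinc 1 to 4. The 3 lowest libraries were zinc libraries, but zinc 4 was above water 2 and water 4. The mean was 1672 ± 440.1 CPM (SD, n = 4) in water and 1145 ± 305 CPM (SD, n = 4) in zinc, a log2 change of -0.55 (SE 0.239, edgeR adjusted p = 0.485). Defa41, the nearest partner of Defa34 and not one of the 8, was lower still, at -0.82 (SE 0.275, edgeR adjusted p = 0.485). Its CPM did not overlap between the groups, against 5.87% of all genes.

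Its relatives differed less. Defa5 was at 767, 729.9, 1024 and 942 CPM in water and 732, 720.4, 561 and 883 CPM in zinc, a log2 change of -0.26 (SE 0.189, edgeR adjusted p = 0.590). Defa35 was at 251, 234, 275 and 314 CPM in water and 219, 271, 181 and 315 CPM in zinc, a log2 change of -0.12 (SE 0.195, edgeR adjusted p = 0.804). Each gene had its lowest value in zinc 3, and the groups overlapped.

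The Defa24-like copies spread most among the water libraries. Defa26 was at 1455, 1519, 3089.9 and 2326 CPM in water and 1911, 1408, 1774 and 1720.1 CPM in zinc, a log2 change of -0.30 (SE 0.253, edgeR adjusted p = 0.626). Defa17 was at 1109, 1028, 2539.9 and 1874 CPM in water and 1461, 1101, 1622 and 1330 CPM in zinc, a log2 change of -0.25 (SE 0.289, edgeR adjusted p = 0.726). In both genes water 3 and water 4 were the highest libraries and water 1 and water 2 were each below at least 3 of the zinc libraries. Without water 3 and water 4 the fitted log2 change was 0.19 for Defa26 and 0.36 for Defa17.

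Defa3 was at 82.2, 77.9, 179 and 136 CPM in water and 123, 96.6, 150.4 and 109 CPM in zinc, a log2 change of 0.01 (SE 0.271, edgeR adjusted p = 0.987). Defa28 was at 17.3, 17.1, 37.4 and 24.9 CPM in water and 23.6, 17.5, 37.0 and 19.6 CPM in zinc, a log2 change of 0.02 (SE 0.298, edgeR adjusted p = 0.979). For Defa28 water 3 and zinc 3 stood about level at the top, and for Defa3 water 3 was highest and zinc 3 next. Defa27 was at 1.98, 2.26, 3.57 and 2.80 CPM in water and 1.59, 1.43, 3.08 and 2.66 CPM in zinc, a log2 change of -0.25 (SE 0.342, edgeR adjusted p = 0.770), where 3 counts, the floor used for a count of 0, are worth 0.178 to 0.369 CPM. Defa24 itself had a log2 change of -0.29 (SE 0.267, edgeR adjusted p = 0.645).

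**Figure D5:**
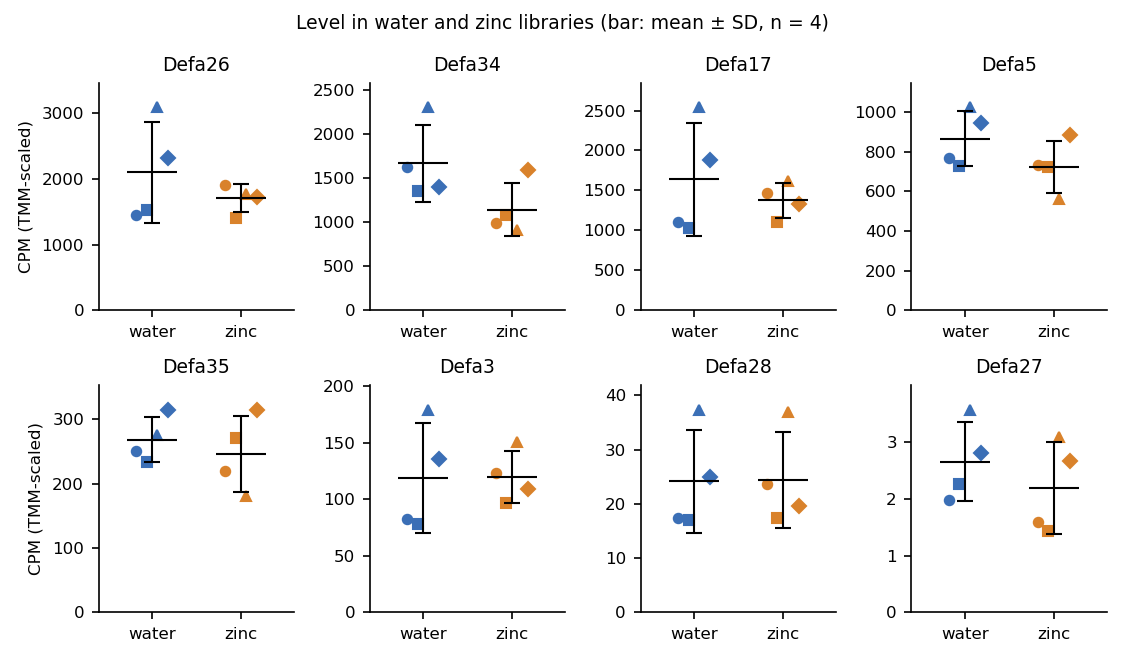
CPM on TMM-scaled library sizes for each minor copy in water (blue) and zinc (orange) libraries, with the mean ± SD of 4 libraries as bars and marker shapes for replicates 1 to 4. The groups overlap in every panel, and water 3 (blue triangle) is the highest library for Defa26, Defa34, Defa17, Defa5, Defa3, Defa28 and Defa27.

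To compare the genes with Defa24 rather than with the bulk of genes, the same test was run with the Defa24 count of each library as its size. No gene and so none of the 8 passed (0% of 10706), and the median log2 change of all genes was 0.20 on this scale, so changes are read against that shift. The median of the 8 genes was 0.04. Fitted log2 changes were 0.33 for Defa3 (SE 0.284), 0.32 for Defa28 (SE 0.290, and 0.07 without zinc 3), 0.11 for Defa35 (SE 0.311), 0.08 for Defa17 (SE 0.235), 0.0044 for Defa26 (SE 0.221), -0.0084 for Defa5 (SE 0.267), -0.01 for Defa27 (SE 0.399) and -0.29 for Defa34 (SE 0.269), with edgeR adjusted p of 0.873 or more. Unadjusted p fell under 0.05 for 770 genes, none of them among the 8, and DESeq2 with the same sizes called 2, neither of them among the 8.

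Genes that make or process defensins were taken from a fixed list of 12, and 0 of 12 passed the test of zinc against water in either direction (edgeR, adjusted p of 0.485 or more). Mmp7, the processing protease, was at 5532 ± 2167 CPM (SD, n = 4) in water and 4057 ± 444 CPM (SD, n = 4) in zinc, a log2 change of -0.45 (SE 0.259). Slc30a2, a zinc transporter of secretory granules, was at 73.8 ± 8.68 CPM in water and 103 ± 14.6 CPM in zinc (SD, n = 4), a log2 change of 0.48 (SE 0.153). Xbp1, a transcription factor of the unfolded protein response, had a log2 change of -0.39 (SE 0.210, edgeR adjusted p = 0.508). For Slc30a2 and Xbp1 the groups did not overlap, against 5.87% of all genes, and for the other 10 genes they did. Atoh1, a secretory lineage factor, had a log2 change of 1.23 (SE 0.371) with groups that overlapped. The summed CPM of 10 crypt stem cell markers was 469 to 658 in water and 539.6 to 1211 in zinc, and its part in the Atoh1 value was not tested.

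The remaining changes of the list were -0.20 (SE 0.225) for Lyz1, 0.11 (SE 0.152) for Fzd5, a Wnt receptor of Paneth cell maturation, -0.0036 (SE 0.131) for Ctnnb1, which encodes beta-catenin, -0.03 (SE 0.215) for its partner Tcf7l2, and -0.21 (SE 0.258) for Sox9, a factor needed for Paneth cells. They were 1.47 (SE 0.528) for Gfi1 and -0.45 (SE 0.187) for Spdef, both secretory lineage factors, and -0.22 (SE 0.612) for Nod2, a sensor of bacterial cell wall fragments, all on the log2 scale.

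Since Wnt signalling through TCF factors drives alpha-defensin promoters in Paneth cells, the 250 bases before the start were read for the minor copies held in the RefSeq promoter table, which were Defa28 and Defa35, and for Defa21, the copy that Defa35 followed. Bases are from build GRCm38.p6, plus strand, 5′ to 3′, at chr8:21064788-21065037 for Defa35, chr8:21025295-21025544 for Defa21 and chr8:21582777-21583026 for Defa28. Capitals mark matches on either strand to the letters CTTTGA, the core of the TCF site, which reads TCAAAG on the other strand, and to TATAAA, the TATA box, and the 2 motifs do not overlap.
Defa35: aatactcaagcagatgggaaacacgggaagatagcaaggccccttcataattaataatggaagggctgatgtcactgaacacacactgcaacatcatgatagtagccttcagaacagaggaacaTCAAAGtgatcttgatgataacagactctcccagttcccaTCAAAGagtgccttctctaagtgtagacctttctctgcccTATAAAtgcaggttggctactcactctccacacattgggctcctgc
Defa21: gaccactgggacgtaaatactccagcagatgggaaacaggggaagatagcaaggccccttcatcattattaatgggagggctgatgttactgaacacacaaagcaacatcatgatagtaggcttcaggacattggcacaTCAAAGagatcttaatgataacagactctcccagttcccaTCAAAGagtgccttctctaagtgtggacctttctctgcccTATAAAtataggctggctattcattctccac
Defa28: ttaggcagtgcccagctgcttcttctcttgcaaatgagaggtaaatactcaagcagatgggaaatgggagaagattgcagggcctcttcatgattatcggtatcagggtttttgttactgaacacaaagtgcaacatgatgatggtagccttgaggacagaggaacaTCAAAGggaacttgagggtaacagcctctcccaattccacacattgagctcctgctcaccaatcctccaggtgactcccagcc
In Defa35 the TCF letters began 126 and 86 bases and the TATA letters 46 bases before the start. In Defa21 the same 3 matches began at 111, 71 and 31 bases, at the same spacing. Defa28 had 1 match to the TCF letters, 83 bases before its start, and no TATAAA in this window. The start used is that of RefSeq, and the paper shows that annotation sources place the start of Defa28 differently. The distance and the missing TATAAA therefore hold for the RefSeq start only. Over the windows of the table, from 250 bases before the start to 50 after it, the TCF letters were in 16% of 32851 windows and in 13 of 16 Defa windows, and the TATA letters were in 13.6% and in 15 of 16. Upstream identity to Defa35 was 98% for Defa36 and Defa37, which had 3 and 21 counts over the 8 libraries. It was 81.1% for Defa21, Defa22, Defa2 and Defa20, of which Defa2 and Defa20 had 10 and 15 counts, and 58.2% for Defa28. Defa36, Defa37, Defa2 and Defa20 had 0% of 75-base words of their own, so these counts do not show how much they are transcribed. The windows were compared end to end from each annotated start, while the matches in Defa35 and Defa21 lie at different distances from it. That shift by itself lowers the identity of Defa35 to Defa21, and identity with the shift removed was not computed. A match describes letters, and no binding was measured.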

How the data were processed

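RNA of sorted Paneth cells was isolated with an Aurum total RNA mini kit and made into libraries with the Illumina TruSeq stranded mRNA kit, per the labels. The authors deposited 1 table of raw counts per gene for the 8 libraries, 4 per group, and used here as deposited. The submitters' processing notes name FastQC 0.12.0, STAR 2.7.10a, DESeq2 and build mm39. The study's methods describe aligning its reads to GRCm39 with a GENCODE annotation and default STAR settings, in a STAR version other than that of the notes, and do not say whether those alignments made the deposited table. The counter and its rule for reads with several matches are not given in the sources used here, so counts of near-identical copies may hold reads of their relatives or lack shared reads.

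Of 55414 gene IDs, 54749 matched GENCODE M39 (GRCm39), and the 665 unmatched held 0.00443% of counts. Genes passing the default filterByExpr of edgeR 4.0.16 (R 4.3.3), 10707 with 99.89% of counts, were tested with TMM scaling and the two-sided quasi-likelihood F-test, Benjamini-Hochberg adjusted over all of them at 0.05. The biological coefficient of variation was 0.269. For levels relative to Defa24, the Defa24 count served as library size. Correlations used log2 CPM with a prior count of 2 and all 40320 orders of the libraries, whose smallest exact permutation p is 2.48e-05. They were computed with NumPy 2.4.6, with ranks from SciPy 1.17.1. Per-length levels used the canonical transcript. Sequence edits were counted with edlib 1.3.9.post1. Alternatives were DESeq2 1.42.0, limma 3.58.1, other scalings, filters and libraries left out. The statistical scripts were tested on simulated data. Intervals and floors of 3 counts cover counting error only.

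The 8 genes, the lists and the alternatives were chosen with earlier results of these data known. The text names the 8 genes, Defa24, Defa genes next to a member in level, sequence or pattern, the 12 genes of a list for making defensins, and the genes of highest r. Upstream sequences are from RefSeq (GRCm38.p6), where 2 of the 8 genes matched by symbol, and coding sequences are from the GRCm39 genome.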

Additional observations from a re-analysis of the deposited data

Results flagged for a closer look

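In water 2, the log2 ratio of Defa27 to Defa24 lay apart from the other 3 water libraries, with a gap of 0.835 of the range of the group, just above the limit for 4 samples. Defa27 had 38 counts in that library against 29, 29 and 35 in the other water libraries. Of 32 groups of 4 values searched, this was 1, where chance gives about 1.6.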

How the results depend on the processing

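No alternative brought any of the 8 genes past the threshold for zinc against water, on either scale. DESeq2 called 4 genes over the whole table. Relative to Defa24, no filter gave 159 calls, DESeq2 gave 2, and leaving out 1 library gave 0 to 40 (6 without zinc 3, 40 without zinc 4). The median change of the 8 genes was -0.020 with a length and GC correction and 0.11 without water 3 and 4, and -0.35 to -0.08 with 1 library left out.

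Signs of small changes turned. Leaving out 1 library gave -0.15 to 0.27 for Defa3, -0.42 to 0.037 for Defa17 (0.037 without water 3), -0.24 to 0.30 for Defa28 and -0.27 to 0.0039 for Defa35. Defa3 was -0.0038 with DESeq2, Defa28 was -0.035 with limma-voom and Defa35 was 0.11 with the length and GC correction. Without water 3 and 4 the change was 0.36 for Defa17, 0.19 for Defa26, 0.037 for Defa27 and 0.017 for Defa35. Relative to Defa24, leaving out 1 library gave -0.10 to 0.11 for Defa5, -0.034 to 0.025 for Defa26, -0.21 to 0.14 for Defa27 and -0.034 to 0.25 for Defa35, Defa28 fell from 0.32 to 0.07 without zinc 3, and Defa26 was -0.033 with the other Defa genes as size. Defa34 kept its sign throughout, at -0.75 to -0.35 with 1 library left out.

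The summed level of the 8 genes, 3.68% of Defa24 per base, was 3.37% with no division by length, 36.8% per unique 75-base word and 20.2% per unique 100-base word. The value per 50-base word could not be given, as Defa5 has none of its own. With library totals 867 genes passed the correlation with Defa24, and r was -0.237 for Defa5 and -0.567 for Defa35. Without the 2 farthest libraries r was -0.0121 for Defa5, -0.190 for Defa34 and -0.226 for Defa35. The causes were not tested.

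Replicate numbers did not pair the libraries, since same-numbered deviations correlated at -0.0275 to 0.0266 and not every library correlated best with its own number. With a replicate block 0 genes were called in both fits, and the median of the 8 genes was -0.20. Depth limits Defa27 most, at 17 to 44 counts per library, and Defa28, at 243 to 528.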
